A study of Mus musculus with 8 samples.

Results

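The integrated stress response genes described here are 10 genes given by name, Gdf15, Fgf21, Atf3, Atf4, Ddit3, Trib3, Chac1, Asns, Mthfd2 and Psat1, each taken at its locus in the authors' deposited transcript annotation. Of the 10, 8 had a locus of their own among 35299 loci. The Atf4 and Ddit3 loci also held another gene, so both were left out of the counts of members and their shared values are given apart. The data are long RNA sequencing of the border zone, the muscle at the edge of the infarcted area or the same region of an unharmed heart, from C57BL/6J mice 12 weeks old. There were 4 libraries from hearts 2 weeks after myocardial infarction (MI) and 4 from hearts 2 weeks after a sham operation (Sham), and the comparison asks which genes differed between them. Every title in the Sham group carries a remark that the sample was analysed again and no MI title does, so sample origin and infarction cannot be told apart. Groups follow the titles and the treatment field, while the source field of all 4 MI samples says Sham and the descriptions of MI 1, MI 2 and MI 3 speak of a sham infarct and that of Sham 4 of an infarct.

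The integrated stress response starts when kinases that sense misfolded protein, lack of amino acids, lack of haem, viral RNA or failing mitochondria phosphorylate the translation factor eIF2. General protein synthesis then falls while the transcription factor ATF4 is made in larger amounts, and ATF4 with its partners switches on genes for amino acid synthesis and transport, for feedback and, under long stress, for cell death. Gdf15 and Fgf21 encode hormones that stressed tissue releases, and in mouse hearts with mitochondrial disease both hormones and the serine and folate enzymes are known outputs of the pathway. Only RNA was measured here, so the amounts of ATF4 protein and of phosphorylated eIF2 were not seen.

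The libraries held 165.5 to 190.2 M reads in MI and 108.3 to 160.7 M reads in Sham. Levels are the authors' normalised reads, in which 1 read was worth 0.663 to 0.873 normalised reads in MI libraries and 1.14 to 1.58 in Sham libraries. The labelled tissue was checked with heart muscle markers, and the 5 with a locus of their own summed to between 3864470 and 4968230 normalised reads in MI and between 6282220 and 7297190 in Sham, with 4 of 5 lower in MI. Markers of other cells moved with the groups: all 6 fibroblast markers were higher in MI, with sums of 475029 to 718385 against 92028 to 136081 normalised reads in Sham, and so were 6 of 6 macrophage markers (30280 to 37855 in MI against 17180 to 24423 in Sham). Neutrophil markers (5 of 5 higher, sums of 937 to 3263 in MI and 346 to 672 in Sham) and lymphocyte markers (6 of 6 higher, sums of 224 to 627 in MI and 132 to 282 in Sham) moved the same way, while 0 of 6 endothelial markers passed the test. Smooth muscle and pericyte markers were higher in 3 of 5, with sums of 115012 to 135214 in MI and 116174 to 130251 in Sham. Both tested atrial muscle markers, Myl7 and Myl4, were higher, with sums of 272 to 11311 in MI and 185 to 579 in Sham, and MI 2 had the highest level. Skeletal muscle markers summed to 11755 in MI 3, where the lowest MI sum was 287 and the Sham sums were 138 to 189, and 1 of these 5 markers was called. No marker was at 0 in every library. These are bulk samples, so fewer cells of a type and less RNA per cell cannot be told apart, and the part of cell makeup in any difference below was not tested. Beside MI 2 and MI 3 with these muscle markers, Sham 3 stood apart. It had the highest value of all 8 libraries for 8 of 8 cytosolic heat shock genes, and the highest of the 4 Sham libraries for 5 of the 7 members tested. In the lists described below it was the highest of all 8 for 8 of 9 mitochondrial chaperones and proteases and 12 of 18 tRNA synthetase genes. The same held for 11 of 17 XBP1 and ATF6 genes and 10 of 13 eIF2 and eIF2B genes, but for 1 of 11 amino acid transporters. The members called higher with all 8 libraries were also called without Sham 3, with Atf3 added to make 5, and all 4 were also called without MI 2 and without MI 3.

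Of the 8 members with their own locus, 7 reached the mean of 10 normalised reads over the 8 libraries needed for the test (limma on log2(value + 1), Benjamini-Hochberg adjustment over 19186 loci, threshold 0.05). Gdf15, Mthfd2, Asns and Psat1 were higher in MI and none was lower, where 20.8% of all tested loci were called higher, 20.1% lower and 40.9% either way (3999 higher and 3855 lower loci, against 8525 and 1498 with libraries scaled to their total reads). In the same 4 genes every MI library lay above every Sham library, as it did for 19.7% of tested loci, with 39.6% not overlapping in either direction. The median log2 difference was 0.90 over the 7 tested members and -0.02 over all tested loci. Atf3, Trib3 and Chac1 did not pass the test.

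**Figure D1:**
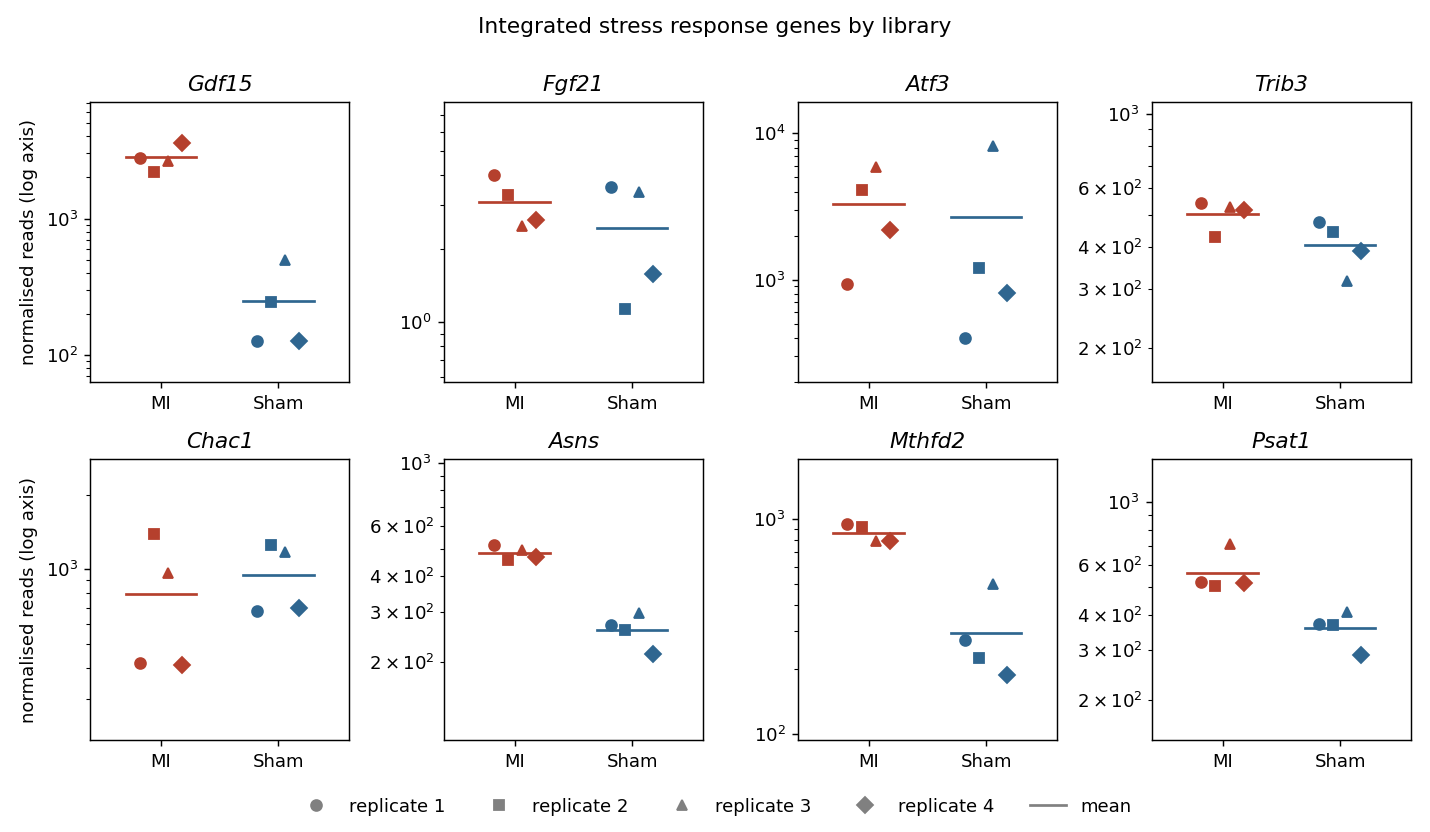
Normalised reads (log axis) of the 8 members with their own locus, MI left and Sham right in each panel; symbols are the 4 replicates and lines the group means. Gdf15 (2192 to 3591 in MI, 126 to 498 in Sham), Asns, Mthfd2 and Psat1 have groups that do not overlap, while Atf3 spreads from 395 to 8258 within Sham.

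The upstream sequence of the members is shown because ATF4 with C/EBP partners binds a composite element, so that the genes can be set side by side by whether they carry its letters. The pattern searched was TGATGNAA, with its reverse complement TTNCATCA for the other strand, as the only motif, in the 250 bases before each RefSeq gene start (GRCm38.p6, a build other than the mm9 of the expression data). It was found in 3.45% of 32851 such windows over all genes and in 4 of the 12 windows of the members, 1 each for Asns, Atf3, Chac1 and Fgf21. The windows of Gdf15, Mthfd2, Psat1, Trib3, Atf4 and Ddit3 held no match, which says only that these letters are not in those windows. Of the 4 members that were higher in MI, Asns had a match. The first base of the match in Asns lay 23 bases before the start, that in Atf3 110 bases, that in Fgf21 139 bases and that in Chac1 193 bases. The sequences below run 5′ to 3′ toward the gene start, with the match in capitals. Gdf15 had a window at chr8:70632457-70632706, printed here, and another at chr8:70632096-70632345, both on the minus strand and without a match. The Asns window lies at chr6:7693210-7693459 on the minus strand, Atf3 at chr1:191183334-191183583 on the minus strand and Chac1 at chr2:119350992-119351241 on the plus strand.
Gdf15: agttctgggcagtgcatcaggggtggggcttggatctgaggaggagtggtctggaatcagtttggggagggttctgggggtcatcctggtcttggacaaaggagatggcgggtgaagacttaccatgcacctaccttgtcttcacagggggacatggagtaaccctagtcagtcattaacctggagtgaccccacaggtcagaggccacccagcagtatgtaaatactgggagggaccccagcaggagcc
Asns: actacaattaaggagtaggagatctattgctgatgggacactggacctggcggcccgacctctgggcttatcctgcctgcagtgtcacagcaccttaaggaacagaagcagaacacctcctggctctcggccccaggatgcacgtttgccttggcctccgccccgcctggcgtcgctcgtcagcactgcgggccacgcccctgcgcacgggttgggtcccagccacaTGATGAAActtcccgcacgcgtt
Atf3: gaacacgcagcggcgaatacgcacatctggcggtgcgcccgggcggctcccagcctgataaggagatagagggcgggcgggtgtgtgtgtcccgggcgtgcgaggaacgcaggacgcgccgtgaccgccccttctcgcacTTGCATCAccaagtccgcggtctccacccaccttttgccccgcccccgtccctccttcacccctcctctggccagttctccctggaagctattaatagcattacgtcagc
Chac1: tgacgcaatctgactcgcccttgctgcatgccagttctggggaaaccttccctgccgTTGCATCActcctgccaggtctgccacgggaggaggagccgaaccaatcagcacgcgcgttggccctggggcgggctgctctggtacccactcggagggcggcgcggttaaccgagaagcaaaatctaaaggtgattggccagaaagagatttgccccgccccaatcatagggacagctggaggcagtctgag

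Gdf15, which encodes growth differentiation factor 15, a secreted hormone that acts on the hindbrain to lower food intake, had the largest difference of the 7. Its locus in mm9 is chr8:73153292-73156355 on the minus strand, with 1852 exon bases. It had 2775, 2192, 2641 and 3591 normalised reads in MI 1 to MI 4, against 128, 244, 498 and 126 in Sham 1 to Sham 4. Every MI library was above every Sham library, and Sham 3 was the highest of its group. The means were 2800 ± 583 in MI and 249 ± 175 in Sham (SD, n = 4 each), a ratio of 11.2. The log2 difference was 3.70 ± 0.38 (SE; 95% interval 2.87 to 4.54; limma adjusted p = 4.96e-05). The spread within Sham was wide, with a highest value 3.95 times the lowest, against 1.64 times within MI.

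Fgf21 encodes fibroblast growth factor 21, a hormone best known from the fasting liver that reports nutrient and mitochondrial stress. Its locus, chr7:52869260-52870860 on the minus strand, had 3.98, 3.29, 2.47 and 2.62 normalised reads in MI 1 to MI 4 and 3.58, 1.14, 3.41 and 1.58 in Sham 1 to Sham 4, and the groups overlapped. These are 16 reads over the 4 MI libraries (95% Poisson interval 9.15 to 26) and 8 over the 4 Sham libraries (3.45 to 15.8), intervals that cover counting error only. It stayed under the mean needed for the test, and 2 MI libraries and all 4 Sham libraries held 3 reads or fewer, so a small difference was not detectable at this depth. The 2 hormones thus stood far apart in level: per kb of exon, the MI means were 1512 ± 315 normalised reads for Gdf15 and 3.26 ± 0.73 for Fgf21.

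The receptors of both hormones were read in the same libraries. Gfral, the receptor of GDF15, found in the hindbrain, had 2 reads in all in MI and 0 in Sham, where 0 allows up to 3 reads per library. Klb, the coreceptor that FGF21 needs, and Fgfr4 had means under 10 normalised reads. Of the 5 tested genes in this list 2 were higher and 1 lower. Fgfr2, a receptor for many fibroblast growth factors, averaged 217 ± 50.4 normalised reads in MI and 34.1 ± 5.58 in Sham (log2 difference 2.61 ± 0.22, adjusted p = 1.83e-05). Fgfr1, which pairs with KLB as the main FGF21 receptor, averaged 8565 ± 801 in MI and 4452 ± 211 in Sham (0.94 ± 0.08, adjusted p = 1.62e-05), and its locus overlaps the antisense gene Gm16159. Ret, the signalling partner of GFRAL, was lower, with 711 ± 120 in MI and 1159 ± 159 in Sham (-0.71 ± 0.14, adjusted p = 0.00276).

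The 3 enzymes among the members were all higher in MI. Mthfd2 encodes a mitochondrial enzyme that oxidises one-carbon units on folate and is low in most adult tissues. Its locus is chr6:83255700-83276123 on the minus strand, and it had 949, 916, 794 and 789 normalised reads in MI 1 to MI 4, against 273, 225, 500 and 188 in Sham 1 to Sham 4. The groups did not overlap, and Sham 3 again led its group. The means were 862 ± 82.6 in MI and 297 ± 140.2 in Sham, with a log2 difference of 1.64 ± 0.25 (95% interval 1.08 to 2.19, adjusted p = 0.000569). The locus overlaps Mob1a on the other strand, which averaged 8232 normalised reads in MI and 5643 in Sham, and reads of overlapping genes cannot be told apart without strand, which the sources used here do not give.

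Asns encodes asparagine synthetase, which makes asparagine from aspartate and glutamine and is a textbook ATF4 target. At chr6:7625171-7643182 on the minus strand it had 515, 458, 495 and 467 normalised reads in MI 1 to MI 4, against 270, 259, 297 and 213 in Sham 1 to Sham 4. Both groups were tight and the lowest MI library exceeded the highest Sham library. The means were 484 ± 26.2 in MI and 259 ± 35.0 in Sham, a ratio of 1.86, and the log2 difference was 0.90 ± 0.12 (95% interval 0.63 to 1.18, adjusted p = 0.000301). Among the called members only the upstream window of Asns, printed above, held the composite letters. Atf3 and Chac1, which were not called, held them too, and any part of the element in the difference was not tested.

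Psat1 encodes phosphoserine aminotransferase, the middle step of serine synthesis. At chr19:15979622-15999515 on the minus strand it had 521, 506, 709 and 517 normalised reads in MI 1 to MI 4, against 372, 369, 410 and 289 in Sham 1 to Sham 4. MI 3 stood above the other 3 MI libraries, which lay within 506 to 521, and these too were above every Sham library. MI 3 is also the library with high skeletal muscle markers, and without it the log2 difference was 0.53 (adjusted p = 0.0166). The means were 563 ± 97.4 in MI and 360 ± 51.3 in Sham, and the log2 difference was 0.64 ± 0.15 (95% interval 0.31 to 0.97, adjusted p = 0.00597). The pseudogene Gm12611 matches 1056 bases of Psat1 at 91.0% identity, so some reads could be shared.

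The transcription factors gave another picture. Atf3, an immediate early repressor and activator induced by many stresses, lies at chr1:192992815-193007212 on the minus strand. It had 932, 4112, 5872 and 2180 normalised reads in MI 1 to MI 4, against 395, 1195, 8258 and 807 in Sham 1 to Sham 4. The highest value of all 8 libraries was Sham 3, at 20.9 times the lowest Sham library, and the groups overlapped. The log2 difference of 0.99 ± 0.83 did not pass the test (95% interval -0.86 to 2.83, adjusted p = 0.372). In edgeR and DESeq2, on the recovered reads, it was 0.31 and not called (adjusted p up to 0.828). Without Sham 3 the limma difference was 1.87 and called (adjusted p = 0.0313), and with a block for the replicate number it was 0.99 and called with all 8 libraries (adjusted p = 0.0333).

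The Atf4 locus, chr15:80064538-80087971 on the plus strand, also holds Mief1, which encodes a mitochondrial division factor. The shared locus had 12216, 14210, 14616 and 14875 normalised reads in MI 1 to MI 4 and 11993, 11275, 15610 and 12292 in Sham 1 to Sham 4. The groups overlapped, with Sham 3 the highest of all, and the log2 difference was 0.14 ± 0.11 (95% interval -0.10 to 0.37, adjusted p = 0.337). Without Sham 3 the difference was 0.23 and called, with an adjusted p that rounds to 0.05. With total scaling it was 0.44 and called (adjusted p = 0.000781). ATF4 output is set mostly at translation, which these RNA levels do not show.

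The Ddit3 locus also holds the non-coding gene Gm20492 and overlaps Mars and Gm4189 on the other strand. Ddit3 encodes CHOP, the factor linked to cell death in long stress. The locus, chr10:126725572-126733342 on the plus strand, had 1910, 1551, 2033 and 2348 normalised reads in MI 1 to MI 4 and 2113, 1613, 2019 and 2004 in Sham 1 to Sham 4. The groups lay on top of each other, with a log2 difference of 0.01 ± 0.13 (95% interval -0.28 to 0.30, adjusted p = 0.961). For the shared locus this interval leaves out the size of the Asns or Mthfd2 difference. It sets no bound for Ddit3 alone, because reads of the other genes may be counted in the locus.

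Trib3 and Chac1 are classic feedback and effector targets downstream of ATF4 and CHOP. Trib3, a pseudokinase that dampens ATF4, had 544, 430, 525 and 516 normalised reads in MI 1 to MI 4 and 476, 444, 316 and 389 in Sham 1 to Sham 4, at chr2:152163161-152169796 on the minus strand. In MI 2 it lay below Sham 1 and Sham 2, so the groups overlapped. The log2 difference of 0.32 ± 0.14 had an interval that just cleared zero (0.0019 to 0.64) and missed the threshold after adjustment (adjusted p = 0.0996). With each library scaled to its total reads it was 0.63 and passed (adjusted p = 0.0139).

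Chac1, which encodes an enzyme that breaks down glutathione, had 420, 1389, 963 and 408 normalised reads in MI 1 to MI 4 and 679, 1257, 1168 and 695 in Sham 1 to Sham 4. The highest and the lowest of the 8 libraries were both MI, and the groups overlapped. The log2 difference was -0.40 ± 0.38 (95% interval -1.25 to 0.45, adjusted p = 0.439). The deposited locus, chr2:119169393-119184497 on the plus strand, has a long transcript model of 13589 exon bases that begins just after the end of Dll4, beside a short model of 1608. Dll4 itself averaged 3959 ± 524 in MI and 3480 ± 589 in Sham, and whether reads running on from it are counted in Chac1 was not tested.

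Atf3 and Chac1 shared an order within MI that the called members did not have. MI 2 and MI 3 were their 2 highest MI libraries, while Gdf15 was highest in MI 4 and Mthfd2 in MI 1. Sham 2 and Sham 3 were likewise the 2 highest Sham libraries for Atf3 and Chac1, and also for Gdf15. Ddit4, an inhibitor of mTORC1 singled out after its values were seen, was highest in replicates 2 and 3 of both groups. It had 2942, 13368, 9048 and 3894 normalised reads in MI 1 to MI 4 and 2637, 9354, 14706 and 4727 in Sham 1 to Sham 4. Ddit4 did not pass the test (log2 difference -0.08 ± 0.57, adjusted p = 0.926). The order was not particular to these genes. Fgfr3 had 1104, 2569, 2881 and 1379 in MI 1 to MI 4 and 1071, 2607, 3079 and 1859 in Sham 1 to Sham 4. In all of Atf3, Chac1 and Ddit4 the spread within a group was wider than the difference between the means.

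**Figure D2:**
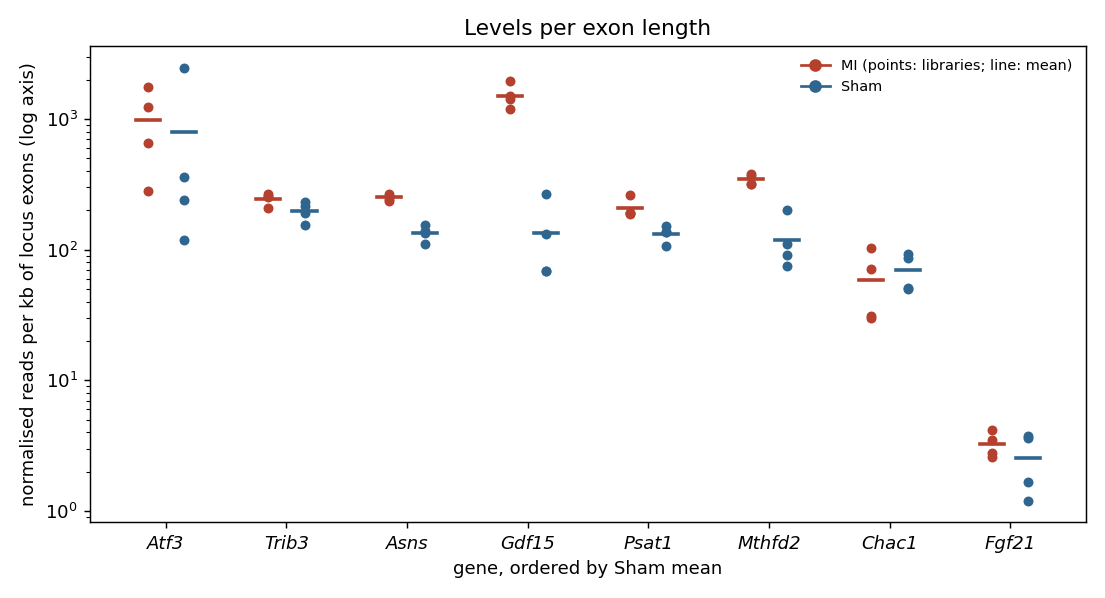
Normalised reads per kb of locus exons (log axis) for the 8 members, MI left and Sham right of each gene; points are libraries and lines means, with genes ordered by Sham mean. Gdf15 averages 1512 in MI and 134 in Sham, and Fgf21 lies near 3 in both groups.

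Set per kb of exon so that genes can be compared, the order of levels differed between the groups. In MI the order was Gdf15 (1512 ± 315 normalised reads per kb), Atf3 (981 ± 650), Mthfd2 (347 ± 33.3), Asns (251 ± 13.6), Trib3 (246 ± 24.6), Psat1 (208 ± 35.9), Chac1 (58.5 ± 34.8) and Fgf21 (3.26 ± 0.73). In Sham it was Atf3 (798 ± 1122), Trib3 (198 ± 34.2), Asns (135 ± 18.1), Gdf15 (134 ± 94.5), Psat1 (133 ± 18.9), Mthfd2 (119 ± 56.4), Chac1 (69.9 ± 22.5) and Fgf21 (2.56 ± 1.32). Within MI, the neighbours Gdf15 and Atf3, Atf3 and Mthfd2, Asns and Trib3, and Trib3 and Psat1 did not differ beyond their SDs. Within Sham, Atf3 and Trib3 did not differ beyond their SDs, nor did Mthfd2 and Chac1. Asns, Gdf15, Psat1 and Mthfd2 lay together within their SDs in Sham. By group means Gdf15 was thus in the middle of the members in Sham hearts. In MI hearts Gdf15 had the highest mean, but was not apart from Atf3 beyond their SDs. The long Chac1 model lowers its value per kb.

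**Figure D3:**
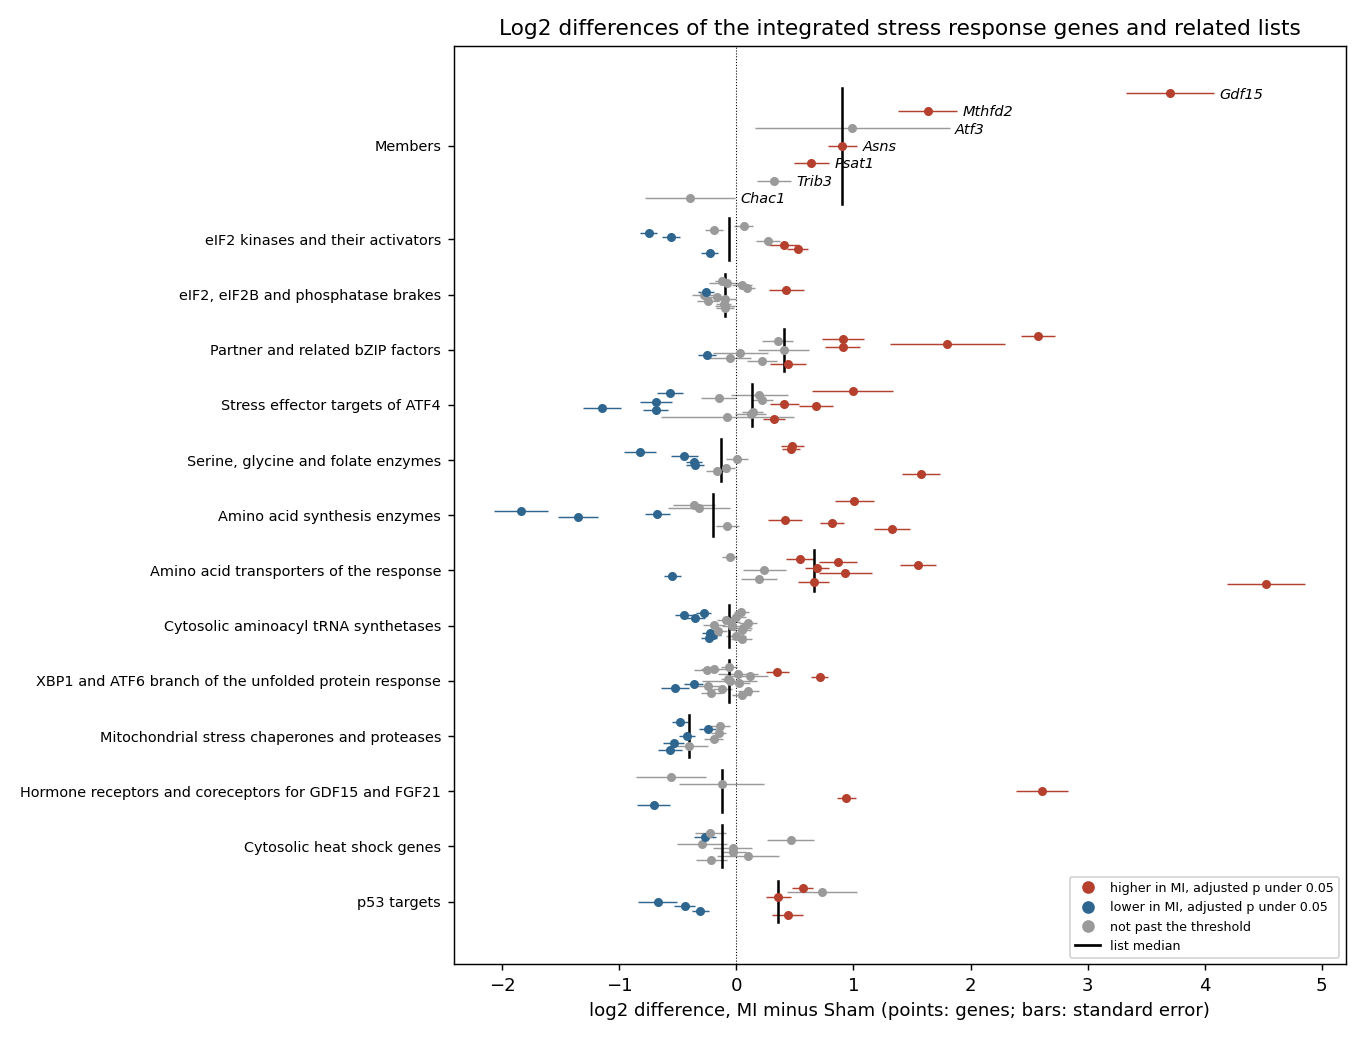
Log2 differences (MI minus Sham) with standard errors for the tested members, top, and for the tested genes of 13 related lists below; colour marks adjusted p under 0.05 and black lines are medians. Gdf15, at 3.70, leads the members, and the transporter list holds 7 higher genes and 1 lower.

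The rest of the pathway was read from 13 lists with 141 tested genes, of which 33 were higher and 35 lower in MI. Over all tested loci 20.8% were higher and 20.1% lower. With libraries scaled to their totals the list counts were 74 and 17, against 8525 and 1498 of all 19186 loci. That scaling gave all tested loci a median of 0.29 in place of -0.02, so small falls in the lists below depend on the scaling. Without Sham 3 the list counts were 32 and 32, against 3759 higher and 3425 lower of 19243 loci tested in that fit. With upper-quartile scaling they were 31 and 49, against 3729 and 4809 of all 19186 loci. Falls thus outnumbered rises over all loci too with that scaling. The amino acid transporters had 7 of 11 tested genes higher and 1 lower, with a median log2 difference of 0.66. Slc7a11, the cystine importer, had 208, 158, 74.1 and 139 normalised reads in MI 1 to MI 4, against 4.77, 5.69, 3.41 and 6.31 in Sham 1 to Sham 4. These are 755 reads over the 4 MI libraries (95% Poisson interval 702 to 811) and 16 over the 4 Sham libraries (9.15 to 26), and the log2 difference was 4.52 ± 0.33 (adjusted p = 8.4e-06). Slc1a4, a carrier of serine and alanine, averaged 971 ± 212 in MI and 325 ± 32.5 in Sham (1.55 ± 0.16, adjusted p = 4.4e-05). Slc7a3, a carrier of arginine and lysine, averaged 67.1 ± 12.3 in MI and 34.9 ± 7.55 in Sham (0.93 ± 0.23, adjusted p = 0.0079).

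The serine, glycine and folate enzymes split, with 3 of 10 tested genes higher and 4 lower and a median of -0.13. With total scaling 5 were higher and 1 lower. Phgdh, the first enzyme of serine synthesis and so upstream of Psat1, had 429, 404, 490.0 and 500.0 normalised reads in MI 1 to MI 4, against 189, 115, 144 and 169 in Sham 1 to Sham 4, a log2 difference of 1.58 ± 0.16 (adjusted p = 5.74e-05). Every MI library held more than any Sham library, as for Psat1. Tyms, which makes thymidylate from folate units, was also higher (832 ± 58.8 in MI and 597 ± 40.5 in Sham, log2 0.48 ± 0.09, adjusted p = 0.00247). Aldh1l2, a mitochondrial folate enzyme that acts after MTHFD2, was lower, with 889 ± 125 in MI and 1583 ± 274 in Sham (log2 -0.82 ± 0.14, adjusted p = 0.000979).

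Of the 10 other amino acid synthesis enzymes 4 were higher and 3 lower, with a median of -0.20. Pycr1, the mitochondrial enzyme of proline synthesis, averaged 437 ± 61.9 in MI and 173 ± 26.8 in Sham (log2 1.33 ± 0.15, adjusted p = 0.0001). Cth, which makes cysteine from cystathionine, was lower, with 84.8, 128, 70.8 and 72.4 normalised reads in MI 1 to MI 4, against 360, 220, 331 and 361 in Sham 1 to Sham 4 (log2 -1.84 ± 0.23, adjusted p = 0.000166). Gpt2, the mitochondrial alanine aminotransferase, was lower as well, with 3292 ± 962 in MI and 8159 ± 610 in Sham (log2 -1.35 ± 0.17, adjusted p = 0.000175).

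Of 18 tested genes in the list of cytosolic tRNA synthetases and the tRNA exporter Xpot none was higher and 6 were lower (median -0.07), while with total scaling 11 were higher and 1 lower and without MI 1 only 3 were lower, so no direction is given for the family. Kars (log2 -0.45 ± 0.07, adjusted p = 0.000864), Farsb (-0.35 ± 0.08, adjusted p = 0.00654) and Dars (-0.28 ± 0.06, adjusted p = 0.00508) had the largest changes, and these load lysine, phenylalanine and aspartate onto tRNA. With total scaling Farsb and Dars were not called and Dars turned to 0.03. The Farsb locus overlaps Sgpp2 on the other strand.

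Of the 8 eIF2 kinases and activators 2 were higher and 3 lower (median -0.07), against 4 higher and 2 lower with total scaling and 1 higher and 4 lower with upper-quartile scaling. Dele1, which carries mitochondrial stress to the kinase HRI, had 12978 ± 1160 normalised reads in MI and 21734 ± 597 in Sham (log2 -0.75 ± 0.07, adjusted p = 3.91e-05), and its locus overlaps Pcdh12 on the other strand. Oma1, the protease that cuts DELE1, had 3331 ± 192 in MI and 4903 ± 369 in Sham (-0.56 ± 0.08, adjusted p = 0.000278). Eif2ak1, the gene of HRI, was also lower (-0.23 ± 0.07, adjusted p = 0.0254), but not with total scaling, where Dele1 and Oma1 were the 2 lower genes. Eif2ak2, the double-stranded RNA sensor PKR, was higher at 4120 ± 313 in MI and 2868 ± 285 in Sham (0.52 ± 0.09, adjusted p = 0.001), and so was Eif2ak3, the endoplasmic reticulum sensor PERK (0.41 ± 0.13, adjusted p = 0.0302). The call of Eif2ak3 was lost without MI 4, without Sham 3 and with upper-quartile scaling, which left 1 gene of the list higher.

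Among 13 genes of eIF2, its exchange factor eIF2B and the phosphatase brakes, 1 was higher and 1 lower, against 8 higher and 0 lower with total scaling and 1 higher and 6 lower with upper-quartile scaling, so no direction is given for the list. The lower count was 2 without MI 4 and 3 without Sham 2. Ppp1r15a, which encodes GADD34, the phosphatase subunit that ends the response, had 4209, 5508, 5542 and 5086 normalised reads in MI 1 to MI 4, against 3342, 3352, 5176 and 3451 in Sham 1 to Sham 4 (log2 0.43 ± 0.15, adjusted p = 0.0384). Sham 3 lay among the MI libraries, and the call was lost in 6 of the 8 fits that left out 1 library, all but those without MI 1 or Sham 3. Eif2b5, a subunit of eIF2B, was lower by a small amount (-0.26 ± 0.07, adjusted p = 0.0139) and turned to 0.05 with total scaling. Its locus overlaps the antisense gene Gm16618.

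The list of partner and related bZIP factors also held Nupr1, which is not a bZIP factor. Of its 11 tested genes 5 were higher and 1 lower, with a median of 0.40 (8 higher and 0 lower with total scaling, and 0 lower without MI 3 or Sham 4). Nupr1, a small stress-induced chromatin factor, had 2893, 2026, 2555 and 2945 normalised reads in MI 1 to MI 4, against 495, 369, 489 and 383 in Sham 1 to Sham 4 (log2 2.58 ± 0.14, adjusted p = 1.66e-06). Its groups were far apart, and Sham 3 lay within the range of the other Sham libraries. Fos, an immediate early gene, was higher at 810 ± 237 in MI and 304 ± 301 in Sham (1.80 ± 0.49, adjusted p = 0.0136), with Sham 3 at 753 inside the MI range, and it missed the threshold in edgeR (adjusted p = 0.052) and DESeq2 (adjusted p = 0.0597). Creb3l1, a membrane-bound factor known for collagen-secreting cells, was higher at 1165 ± 208 in MI and 624 ± 143 in Sham (0.91 ± 0.18, adjusted p = 0.00239).

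The other stress effectors in the ATF4 list had 4 of 14 genes higher and 4 lower (median 0.13), and 7 higher and 4 lower with total scaling. Without MI 1, MI 4, Sham 2 or Sham 4 the higher count was 2. Herpud1, which helps degrade proteins of the endoplasmic reticulum, was lower at 20416 ± 4724 in MI and 44637 ± 6756 in Sham (log2 -1.15 ± 0.16, adjusted p = 0.000362). Vldlr, a lipoprotein receptor, was lower at 43051 ± 5853 in MI and 69261 ± 6338 in Sham (-0.69 ± 0.11, adjusted p = 0.000536), and its locus has antisense transcripts. Cdkn1a, which encodes the cell cycle inhibitor p21, was higher at 5250 ± 1101 in MI and 2972 ± 1831 in Sham (0.99 ± 0.34, adjusted p = 0.0396). That call was lost in edgeR (adjusted p = 0.0808), DESeq2 (0.131) and 7 of the 8 fits without 1 library, all but the one without Sham 3.

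**Figure D4:**
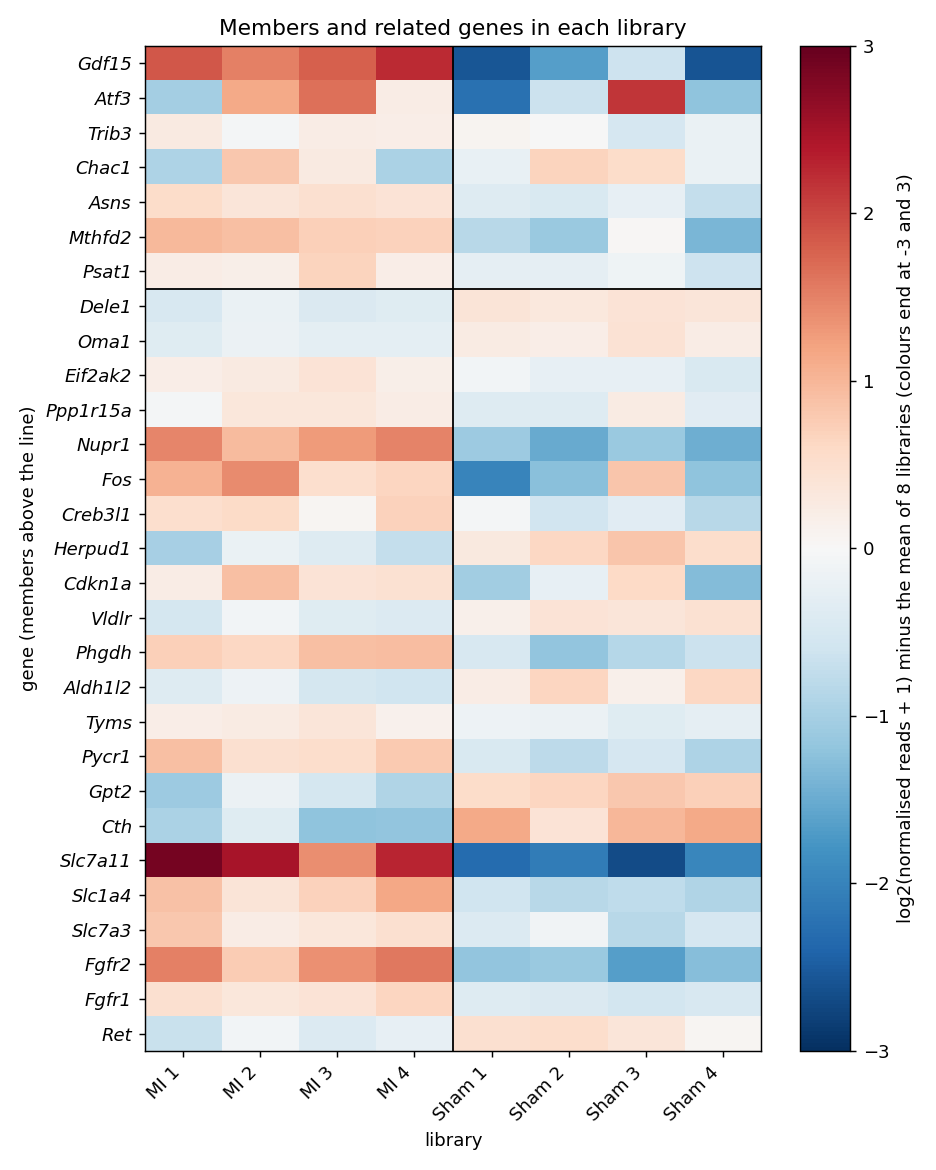
Log2(normalised reads + 1) of each gene minus its mean over the 8 libraries, in MI (left) and Sham (right) columns, with the 7 tested members above the line and named genes of related lists below. Gdf15, Nupr1 and Slc7a11 are high in every MI library, whereas Atf3, Chac1 and Fos vary within groups, with Sham 3 high for Atf3 and Fos.

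Neighbouring stress pathways were described to set the members in place. In the XBP1 and ATF6 branch of the unfolded protein response 2 of 17 genes were higher and 2 lower, against 8 higher and 0 lower with total scaling and 2 higher and 5 lower with upper-quartile scaling. Without MI 4 the higher count was 1, and without MI 2 the lower count was 4. Edem1, which delivers misfolded proteins for degradation, averaged 4079 ± 273 in MI and 2487 ± 119 in Sham (log2 0.71 ± 0.07, adjusted p = 5.2e-05). The chaperone Hspa5 (-0.53 ± 0.12, adjusted p = 0.00489) and its cochaperone Dnajb9 (-0.36 ± 0.08, adjusted p = 0.00549) were lower, both not called with total scaling, and the Hspa5 locus overlaps Rabepk. The mitochondrial chaperones and proteases had 5 of 9 genes lower and none higher (median -0.40), against 1 higher and 3 lower with total scaling. Hspd1 averaged 42771 ± 3727 in MI and 63525 ± 8137 in Sham (-0.57 ± 0.10, adjusted p = 0.00123), Hspa9 changed by -0.54 ± 0.09 (adjusted p = 0.00078) and Trap1 by -0.48 ± 0.07 (adjusted p = 0.000367). All of these are chaperones inside mitochondria, the sums of heart muscle markers given above were lower in the same libraries, and their part in this was not tested. The Hspd1 locus overlaps Hspe1 and the Trap1 locus Dnase1.

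Cytosolic heat shock genes had none higher and 1 of 8 lower, against 2 higher and 0 lower with total scaling, and 1 was higher without Sham 3. The gene that was lower with all 8 libraries was Hsf1, their main transcription factor (-0.27 ± 0.09, adjusted p = 0.0402), a locus that overlaps Dgat1. The Hsf1 call was lost in 5 of the 8 fits without 1 library (those without MI 1, MI 3, Sham 1, Sham 3 or Sham 4). With total scaling the Hsf1 difference turned to 0.04. The p53 list, which held the p53 gene Trp53 beside p53 targets, had 3 of 7 genes higher and 3 lower, against 4 and 1 with total scaling. It left out p53 targets counted in the ATF4 list, such as Cdkn1a, so this split does not cover all p53 targets. In other settings p53 also raises Gdf15. The higher count was 1 without MI 4, Sham 2 or Sham 4. Trp53 itself was 1 of the 3 higher genes (0.44 ± 0.13, adjusted p = 0.0205). Zmat3, an RNA-binding protein, was higher (0.57 ± 0.09, adjusted p = 0.000603). Sesn1, a stress sensor that limits mTORC1 (-0.67 ± 0.17, adjusted p = 0.00887), and Ccng1, cyclin G1 (-0.44 ± 0.09, adjusted p = 0.00267), were lower. Sesn1 was not called with total scaling, and its locus overlaps Cep57l1 and Armc2.

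The 5 protein-coding genes whose log2 level followed Gdf15 most closely over the 8 libraries, out of 11514 compared, were Thbs1, Nppb, Ankrd1, Atp6v1a and Ereg, with Pearson r between 0.985 and 0.993. These points share library and depth, and each gene differs between the groups, so r is a description. Thbs1, a matrix glycoprotein, had 21476, 18541, 15570 and 21623 normalised reads in MI 1 to MI 4, against 833, 2020, 4762 and 1085 in Sham 1 to Sham 4. Like Gdf15 it was highest among Sham libraries in Sham 3. Nppb, the gene of brain natriuretic peptide, averaged 77592 ± 12775 in MI and 17918 ± 7325 in Sham, and Ankrd1, a stretch-responsive muscle protein, 564443 ± 98532 in MI and 152877 ± 38757 in Sham. Atp6v1a, a subunit of the lysosomal proton pump, differed less, with 5036 ± 121 in MI and 3858 ± 206 in Sham. Ereg, the growth factor epiregulin, had 969 reads over the MI libraries and 25 over the Sham libraries, and its locus overlaps the antisense gene Gm19610.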

How the data were processed

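Poly(A) RNA was sequenced on a HiSeq2000 (2x100 bases), per the labels' protocols. The submitters' processing notes list DESeq, HTSeq 0.5.4p2, Cufflinks 2.0.2 and TopHat2 2.0.5 beside the build mm9, with roles, settings and strandedness not given in the sources used here. The deposited file holds a normalised signal per locus. Each value was a whole multiple of its library's smallest step (100% of values, tolerance 1e-06), so reads per locus were recovered and served edgeR and DESeq2 as alternatives. The rebuilt reads gave 4288 higher and 3649 lower loci in edgeR. Precision follows from the library totals in the report, and a count of 0 allows up to 3 reads (1.99 to 4.73 normalised reads). Intervals and floors cover counting error only, as no molecular identifiers are described.

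Loci were named where exon and intron lengths equalled those of a GENCODE M21 gene on the same chromosome and strand, in the same order within 200000 bases. This gave 18290 loci the name of 1 gene, and a further 539 loci held more than 1 gene. Coordinates of expression loci are mm9 from the deposited annotation, and no coordinate was converted. Upstream windows came from RefSeq by symbol for all 10 members.

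MI was compared with Sham in limma-trend (limma 3.58.1 in R 4.3.3), 2-sided, after adding a pseudocount of 1 and taking log2. Loci averaging under 10 normalised reads were left out, which kept 19186, and p-values were Benjamini-Hochberg adjusted over these. Every adjusted p is from limma unless another tool is named, log2 differences carry their SE after ±, and the pseudocount understates changes of low loci. The series states 4 biological replicates per condition. Alternatives were pseudocounts of 0.5 and 5, no filter, a mean of 50, other scalings (TMM, upper quartile, total), edgeR 4.0.16, DESeq2 1.42.0, voom, robust limma, thinning to equal depth, a replicate block and each library left out. The members, lists and markers were chosen with earlier results of these data known. Named genes are all members and up to 3 called genes with the largest log2 change per list. The 5 genes most like Gdf15 among protein-coding genes with a mean of at least 50 are also named. Eif2ak1, Eif2ak3, Ddit4, Fgfr3 and Trp53 were added after their values were seen. Of 157 listed genes, 13 had no locus of their own and were left out.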

Additional observations from a re-analysis of the deposited data

Results flagged for a closer look

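A value is given here where 1 library of a group of 4 lay far from the other 3, by Dixon's ratio of the gap to its nearest neighbour over the group's range, above its 95% critical value. Of 102 groups looked at (51 genes), 8 held such a library, and chance gives about 1 in 20. Of these 8, 5 were in Sham 3. Atf3 had 8258 normalised reads in Sham 3, against 395 to 1195 in the other Sham libraries, and Atf3 was called without this library. Fos had 753 there (105 to 183 in the others), Ppp1r15a 5176 (3342 to 3451), Dnajb9 7729 (6317 to 6455) and Hspd1 75614 (58446 to 61050). Psat1 had 709 normalised reads in MI 3, against 506 to 521 in the other MI libraries, and its call held without MI 3. Kars had 8726 in MI 1, against 10138 to 10401 in the other MI libraries. Zmat3 had 1859 in Sham 2, against 1985 to 2010 in the other Sham libraries. The cause of these values was not tested.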

How the results depend on the processing

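Gdf15, Asns, Mthfd2 and Psat1 were higher in MI and called in all 21 alternatives (log2 differences of 3.46 to 4.12, 0.81 to 1.21, 1.45 to 1.94 and 0.53 to 0.95), and Chac1 was called in none (-0.73 to -0.09). Leaving out each library gave 0.41 to 1.87 for Atf3 (called without Sham 3), against 0.31 in edgeR and DESeq2, where it was not called. The Atf4 locus had 0.078 to 0.23. Its 0.23, without Sham 3, was called with an adjusted p that rounds to 0.05. The Ddit3 locus had -0.082 to 0.12 (below 0 without MI 3, MI 4 or Sham 2) and Trib3 0.20 to 0.40. The Ddit3 locus also turned to -0.037 with upper-quartile scaling and -0.025 after thinning. Total scaling, which moved all loci up, called the Atf4 locus (0.44) and Trib3 (0.63), gave 74 higher and 17 lower list genes, and turned Dars to 0.029, Eif2b5 to 0.049 and Hsf1 to 0.036. Upper-quartile scaling gave 31 higher and 49 lower list genes, against 3729 higher and 4809 lower of all 19186 loci.

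Whether replicate numbers pair libraries was not decided. Deviations of same-numbered libraries correlated at 0.15, 0.27, 0.16 and -0.00. MI 1, MI 2 and MI 3 each correlated best with the Sham library of their own number. MI 4 correlated best with Sham 1 (0.28), and Sham 4 with MI 1 (0.12). With a replicate block Atf3 kept 0.99 and was called (adjusted p = 0.0333), and Hsf1 was not. Over all loci the block gave 4152 higher and 4056 lower, against 3999 and 3855. The cause of each change was not tested. Fgf21 is limited by depth.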
